A study of Mus musculus with 4 samples.

Results

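Cytochrome P450 enzymes are heme proteins that oxidise drugs, inhaled chemicals, fatty acids, sterols and vitamins. The genes described here are the mouse P450 genes outside families 1 and 26. They were chosen by symbol alone, as Cyp followed by a family number, a subfamily letter and a gene number. This pattern was met by 94 of the 41079 genes in the deposited table, 6 of them in the 2 families left out, and 88 genes remained. Family 2 holds 49 of the 88 and family 4 holds 17. Family 3 has 7 genes, family 11 has 3, families 7 and 27 have 2 each, and families 8, 17, 19, 20, 21, 24, 39 and 46 have 1 each. Pseudogenes and P450 genes with another form of name, such as Cyp51 or Tbxas1, are not among them. P450 genes without further qualification are these 88 from here on.

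Lung RNA was sequenced as 4 libraries, 1 for each combination of genotype (wild type, WT, or Rab44-KO) and condition (normal or OVA-induced). Rab44 encodes a Rab GTPase, and the knockout was made by CRISPR/Cas9 editing in C57BL/6 mice. The study's animals were female littermates aged 8 to 14 weeks, and how many mice gave RNA to a library is not named in the sources used here. OVA-induced mice were given 100 μg of ovalbumin (OVA) in alum into the peritoneum on days 0, 7 and 14, then 100 μg in 50 μL into the nose on 4 days, and tissue was taken on day 21. The normal mice are labelled as untreated, while the protocol they carry also mentions a PBS challenge. The comparisons ask how P450 transcripts of the lung differed between the genotypes, in normal and in OVA-induced lungs, and how they differed with OVA induction in each genotype.

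The counts summed to between 18112901 and 19910236 per library. Rab44 had 251 and 810 counts in the normal and OVA-induced WT libraries, and 1 and 0 in the Rab44-KO libraries. Markers of the lung were present in all libraries, with Sftpc of alveolar type 2 cells at 181126 to 361981 counts and Scgb1a1 of club cells at 320451 to 440878. A level is given in counts per 1000000 (CPM) scaled by the TMM method, and a difference as the log2 ratio of CPM (log2FC). Only genes that reached 10 counts in the higher library of a comparison were given a log2FC, and over 2-fold means a log2FC beyond 1. Ranges in parentheses are exact 95% intervals that cover counting error only. With 1 library per group no difference has a replicate check and no p-value was computed, so that every comparison below is between libraries. Where 4 values of a gene follow each other they are in the order WT and Rab44-KO of the normal lungs, then WT and Rab44-KO of the OVA-induced lungs. Levels of different genes were compared only by the deposited TPM, which is scaled by gene length.

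As background, most P450 enzymes sit in the membrane of the endoplasmic reticulum and take electrons from the reductase Por, while a few of them work in mitochondria with ferredoxin. Families 2 and 3 oxidise mainly foreign compounds, family 4 hydroxylates the ends of fatty acids and eicosanoids, and the higher-numbered families act on sterols, bile acids, steroid hormones and vitamin D. In the mouse lung, club cells of the airway epithelium are the best known site of P450 enzymes, and Cyp2f2 in these cells makes inhaled naphthalene toxic. The deposited annotation attaches heme binding to 87 of the 88 genes and the endoplasmic reticulum membrane to 78. It attaches arachidonate epoxygenase activity to 43 and leukotriene-B4 20-monooxygenase activity to 9.

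Gene positions were taken from GENCODE M21 (GRCm38), in which 87 of the 88 genes were found, all but Cyp2d13. A cluster of 13 family 2 genes lies on chromosome 7 from 25802475 to 27158668, a span of 1356.2 kb, and 8 of them reached 10 counts in at least 1 library. It holds 4 of the 5 genes with the highest mean TPM, namely Cyp2f2, Cyp2b10, Cyp2a5 and Cyp2s1. The 250 bases before the RefSeq start of the first 3 are shown because these neighbouring genes, all on the plus strand, had different values with OVA induction. The sequences are RefSeq's on GRCm38.p6, read 5′ to 3′, and capitals mark the motifs found by the search described after them. The RefSeq starts lie inside the GENCODE gene bounds given with the values below, so the last bases of each window fall within those bounds.
Cyp2f2, chr7:27119705-27119954: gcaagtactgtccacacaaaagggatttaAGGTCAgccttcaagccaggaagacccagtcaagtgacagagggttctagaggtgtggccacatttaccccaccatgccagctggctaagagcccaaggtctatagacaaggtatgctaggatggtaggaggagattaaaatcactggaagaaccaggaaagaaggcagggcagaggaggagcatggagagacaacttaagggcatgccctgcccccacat
Cyp2a5, chr7:26835089-26835338: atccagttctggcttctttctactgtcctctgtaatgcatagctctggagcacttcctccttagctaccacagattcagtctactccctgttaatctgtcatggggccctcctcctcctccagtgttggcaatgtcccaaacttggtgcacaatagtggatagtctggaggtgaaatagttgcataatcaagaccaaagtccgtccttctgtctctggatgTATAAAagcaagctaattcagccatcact
Cyp2b10, chr7:25897408-25897657: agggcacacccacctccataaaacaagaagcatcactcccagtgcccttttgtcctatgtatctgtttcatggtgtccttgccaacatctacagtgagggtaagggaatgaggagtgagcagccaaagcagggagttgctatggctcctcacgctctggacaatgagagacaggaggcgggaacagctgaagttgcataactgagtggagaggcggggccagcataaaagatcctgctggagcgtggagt

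Both strands were searched for 6 motifs in the 250 bases before 32851 gene starts, among them 27 of the 34 P450 genes that reached 10 counts. The TATA box letters TATAAA stood in 12.4% of all promoters and in 5 of the 27, those of Cyp4a32, Cyp2a4, Cyp2a5, Cyp2e1 and Cyp8b1. In Cyp2a5 they lie 29 bases before the RefSeq start. The nuclear receptor half-site AGGTCA stood in 14.0% of all and in 3 of the 27, Cyp2f2 included, where it begins 221 bases before the RefSeq start. The CCAAT box stood in 33.8% and in 14 of the 27, and CTCAAG, a core of NKX2-1 sites, in 13.3% and 3 of the 27. The STAT6 site, TTC and GAA with any 4 bases between them, was found in 5.85% of promoters and in 1 of the 27, Cyp27b1. The antioxidant response element TGACNNNGC, found in 10.2%, occurred in 2, Cyp4f18 and Cyp8b1. On the opposite strand AGGTCA reads TGACCT, so it can overlap TGACNNNGC. None of the 6 was found in the window of Cyp2b10. A match of letters is a description and not a binding site.

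Near-identical copies limit what a count of some of these genes means, since how reads with several matches were handled is not named in the sources used here. Cyp2a4, a steroid hydroxylase, and Cyp2a5, which hydroxylates coumarin, have coding sequences of 1485 bases each with 23 mismatches, or 98.5% identity. Of the 150-base windows of that coding sequence, 5.01% are identical in both. The following stretch from coding base 596 to 655, counted from 1 at the start codon, shows how a read could tell them apart, with its 4 mismatches in capitals.
Cyp2a4: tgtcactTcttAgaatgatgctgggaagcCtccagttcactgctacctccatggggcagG
Cyp2a5: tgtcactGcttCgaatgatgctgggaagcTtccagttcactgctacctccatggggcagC
Of the 34 genes that reached 10 counts, 28 shared no 150-base window of their transcripts with another gene. The other 6 shared between 1.60% and 6.96%, which was the share of Cyp4a32 with Cyp4a10 and Cyp4a31. These paralogs of Cyp4a32 had at most 2 counts each.

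P450 transcripts in these lungs were dominated by few genes. Of the 88 genes, 29 had no count in any library, 54 stayed under 10 counts everywhere, 34 reached 10 counts and 22 reached 100. The TPM of all 88 summed to 4623.6 and 5526.5 in the normal WT and Rab44-KO libraries and to 2355.5 and 4859.1 in the OVA-induced ones. In CPM the sums were 3734.7, 4347.9, 2228.9 and 3573.7, with OVA-induced Rab44-KO below normal WT instead of above it. The OVA-induced WT library held the lowest sum by both measures. Cyp2f2 supplied 60.8%, 67.1%, 53.7% and 61.4% of the TPM sums, in the same order, and stood at rank 21, 13, 75 and 18 among all genes of the library by TPM. Cyp4b1, a lung P450 that activates plant toxins and hydroxylates fatty acids, supplied 13.9% to 18.5%. Together with Cyp2b10, Cyp2a5 and Cyp2s1 these genes made up 92.0%, 93.0%, 85.7% and 90.7%.

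**Figure D1:**
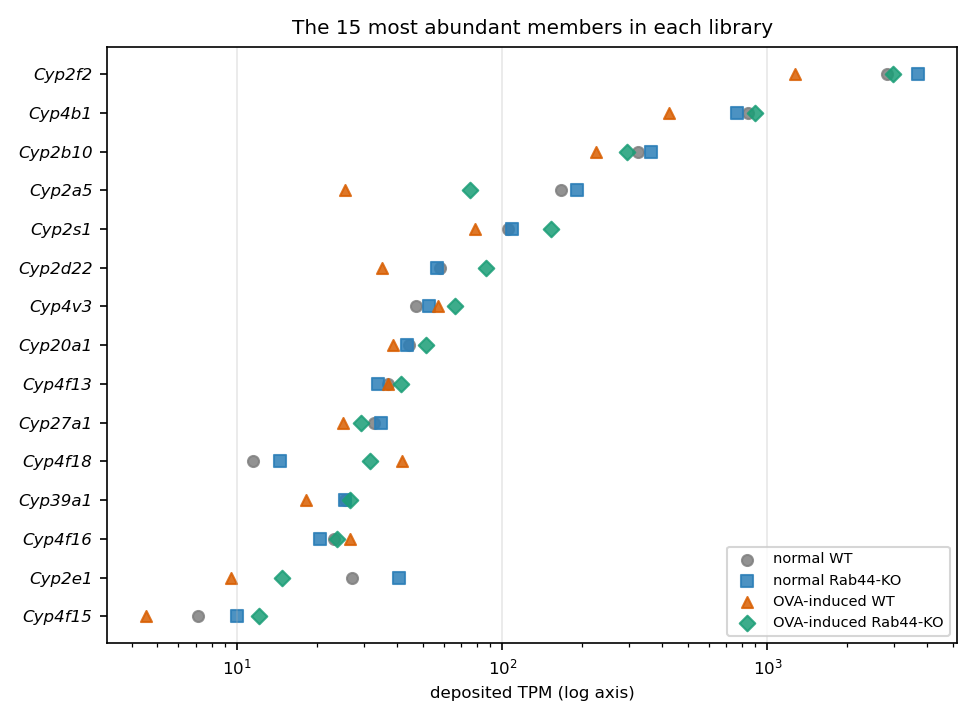
Deposited TPM (log axis) of the 15 P450 genes with the highest mean TPM, with 1 point per library. Cyp2f2 lies highest in every library at 1264.6 to 3708.3 TPM, and Cyp2a5 spreads from 25.5 TPM in OVA-induced WT to 191 TPM in normal Rab44-KO lungs.

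The order of TPM was Cyp2f2, Cyp4b1, Cyp2b10 in all 4 libraries. Below these ranks the order changed with OVA induction. Cyp2a5 had 167 TPM in normal WT and 191 in normal Rab44-KO lungs, above the 105 and 109 TPM of Cyp2s1. In the OVA-induced libraries it had 25.5 and 75.5 TPM, below the 78.7 and 152 of Cyp2s1. Cyp4f18 stood higher after OVA induction, with 11.5 TPM in normal and 41.7 in OVA-induced lungs of WT mice, where counting error did not separate it from Cyp20a1 at 38.6. In normal WT lungs Cyp4v3 and Cyp20a1, at 47.4 and 44.5 TPM, were likewise not separated by counting error, nor was Cyp39a1, at 25.6 TPM, from Cyp2e1 above it and Cyp4f16 below it, at 27.0 and 23.2.

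In WT lungs the log2FC of all 15 measured family 2 genes was below 0 with OVA induction, although that of Cyp2g1 was only -0.01. The counting interval lay wholly below 0 for 8 of the 15, and most of these differences were under 2-fold. Of 34 P450 genes measured in this comparison, OVA-induced WT lungs had 4 over 2-fold higher and 5 lower. These are 11.8% and 14.7%, against 8.99% and 5.20% of 19023 genes tested. The median log2FC was -0.28, against 0.00 over all genes. In family 2 it was -0.64 over 15 genes, of which 4 were over 2-fold lower, while in family 4 it was 0.27 over 10 genes. In Rab44-KO lungs 5 of 33 genes (15.2%) were over 2-fold higher and 2 (6.06%) lower, against 6.44% and 3.85% of 19073 genes, with a median of 0.10 against -0.01. There the median of family 2 was -0.15, with 6 genes above and 9 below 0. At a minimum of 50 counts the WT counts were 2 higher and 3 lower of 23, against 6.51% and 2.38% of all genes, and with intervals wholly beyond 2-fold they were again 2 and 3, of 34, against 4.28% and 1.05%. In Rab44-KO 2 of 23 were higher and 2 lower at 50 counts, against 3.15% and 1.88% of all genes, and with intervals wholly beyond 2-fold 0 of 33 were higher and 2 lower, Cyp2a5 and Cyp2e1, against 1.91% and 0.771%. Under TPM, where the median shift of a log2FC was -0.17 in WT and 0.13 in Rab44-KO lungs, the split in WT was 2 higher and 6 lower, against 6.69% and 5.79% of all genes.

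Between the genotypes, none of the 33 measured P450 genes outside families 1 and 26 was over 2-fold apart in normal lungs. They had differences with a median of -0.05 and a range of -0.95 to 0.95. Of all 18718 genes 2.77% were over 2-fold higher and 2.0% lower in Rab44-KO, and at 50 counts 0.505% and 0.175%. Shares this small leave few or no calls among 33 genes, so the absence of calls is not particular to P450 genes. In OVA-induced lungs 6 of 33 genes (18.2%) were over 2-fold higher in Rab44-KO and 2 (6.06%) lower, against 8.40% and 7.34% of 19259 genes. The median was 0.26 against -0.02 over all genes, and in family 2 it was 0.61 over 14 genes, 12 of them above 0, while in family 4 it was -0.14 over 10 genes, 4 of them above 0. At a minimum of 50 counts 3 of 24 were higher and 1 lower, against 4.90% and 5.14% of all genes, and with intervals wholly beyond 2-fold 2 and 0 of 33, against 2.14% and 2.76%. TPM shifts this comparison by a median of 0.33, and with it 10 were over 2-fold higher and 2 lower, against 13.5% and 4.03% of all genes. The OVA-induced WT library enters both this comparison and the OVA response of WT, so the low family 2 levels of that 1 library are part of both. In bulk lung RNA, fewer cells of a type cannot be told apart from less RNA per cell.

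**Figure D2:**
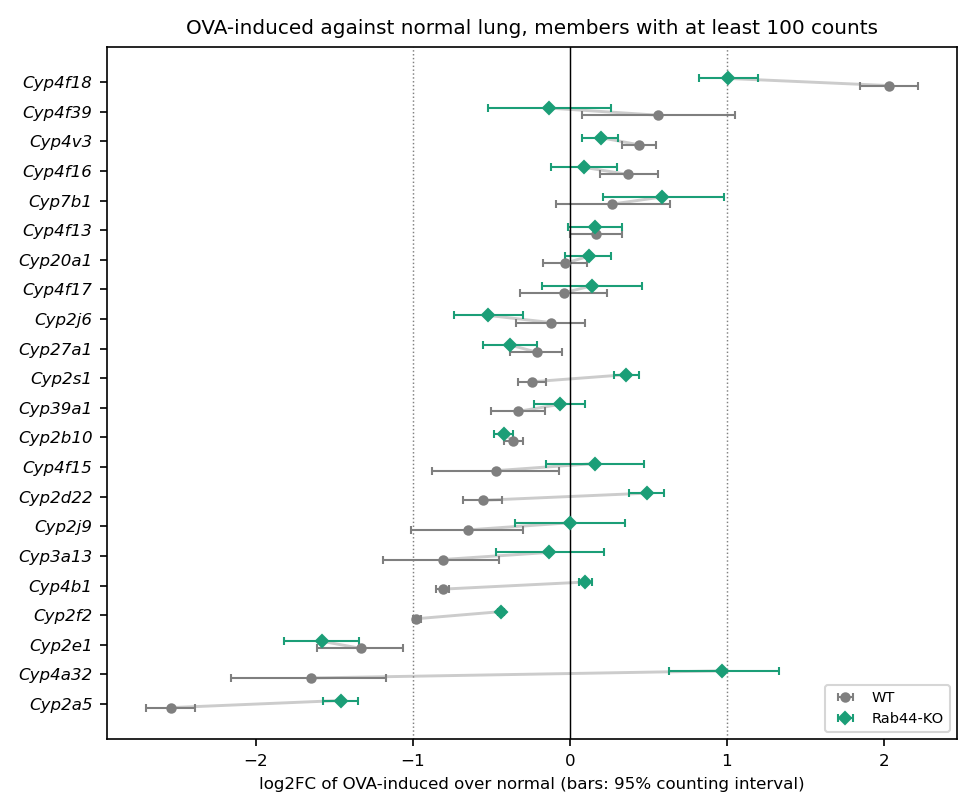
log2FC of OVA-induced over normal lungs for P450 genes with at least 100 counts, WT as circles and Rab44-KO as diamonds, with bars for the 95% counting interval and dotted lines at 2-fold. Cyp2a5 and Cyp2e1 lie beyond 2-fold lower in both genotypes, Cyp4f18 lies beyond 2-fold higher in both, and Cyp4a32 lies at -1.65 in WT and 0.97 in Rab44-KO lungs.

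Cyp2f2, on chromosome 7 from 27119909 to 27133660, had 2153 and 2787 CPM in the normal WT and Rab44-KO libraries and 1093 and 2055 CPM in the OVA-induced ones. It was therefore lowest in the OVA-induced WT library and highest in the normal Rab44-KO library. Its log2FC with OVA induction was -0.98 (-1.0 to -0.95) in WT and -0.44 (-0.46 to -0.42) in Rab44-KO lungs. Rab44-KO exceeded WT by 0.37 (0.35 to 0.39) in normal and 0.91 (0.89 to 0.93) in OVA-induced lungs, or 1.29-fold and 1.88-fold. Under TPM the last value was 1.24 and the OVA response of WT was -1.15, beyond 2-fold in both cases. Removal of the length trend gave 1.18 and -1.09, and scaling by total counts gave 0.98 and -1.02.

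Cyp2a5, the coumarin hydroxylase of the same cluster (26835305 to 26843548), had the lowest log2FC with OVA induction in WT lungs among P450 genes with at least 100 counts, and in Rab44-KO lungs only Cyp2e1 was lower. Its level was 121 and 135 CPM in the normal WT and Rab44-KO libraries, against 20.8 and 49.0 CPM in the OVA-induced ones. Both OVA-induced libraries lay below both normal ones. The log2FC was -2.54 (-2.70 to -2.39) in WT, or 5.82-fold lower, and -1.46 (-1.57 to -1.35) in Rab44-KO lungs, or 2.76-fold lower. Rab44-KO was 0.16 (0.08 to 0.24) above WT in normal and 1.24 (1.07 to 1.41) above it in OVA-induced lungs. Its near copy Cyp2a4, which was chosen after its values were seen, had 13, 9, 1 and 11 counts. These counts are too low to separate it from reads of Cyp2a5.

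Cyp2b10, the classic target of the nuclear receptor CAR in the liver (25897620 to 25926624), had similar levels in both genotypes. It had 257, 281, 200 and 210 CPM in the 4 libraries. The log2FC with OVA induction was -0.36 (-0.42 to -0.30) in WT and -0.42 (-0.48 to -0.36) in Rab44-KO lungs. Between genotypes it was 0.13 (0.07 to 0.19) in normal and 0.07 (0.00 to 0.13) in OVA-induced lungs. By TPM the gap in OVA-induced lungs was larger, at 225 in WT and 295 in Rab44-KO. The counting intervals of the OVA response in WT and in Rab44-KO overlap for Cyp2b10, whereas those of Cyp2a5 are apart.

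Cyp2s1, a P450 of epithelia outside the liver (25802475 to 25816913, minus strand), had 115 and 118 CPM in the normal libraries of WT and Rab44-KO, and 98.0 and 151 CPM in their OVA-induced libraries. The normal libraries were alike, and the OVA-induced ones lay on either side of them. The log2FC with OVA induction was -0.24 (-0.33 to -0.15) in WT and 0.36 (0.28 to 0.44) in Rab44-KO, and Rab44-KO exceeded WT by 0.63 (0.54 to 0.71) after OVA induction. Cyp2d22 on chromosome 15 (82370527 to 82380260), the mouse gene usually set beside human CYP2D6, had the same pattern at 67.9, 64.7, 46.3 and 90.7 CPM. Its log2FC with OVA induction was -0.55 (-0.68 to -0.43) in WT and 0.49 (0.38 to 0.60) in Rab44-KO lungs. In OVA-induced lungs Rab44-KO was 1.96-fold above WT, a log2FC of 0.97 (0.85 to 1.09), against -0.07 (-0.18 to 0.05) in normal lungs. By TPM, Cyp2d22 was beyond 2-fold apart in OVA-induced lungs, at 35.2 in WT and 86.5 in Rab44-KO. It was the only one of 8 Cyp2d genes of its cluster that reached 10 counts.

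**Figure D3:**
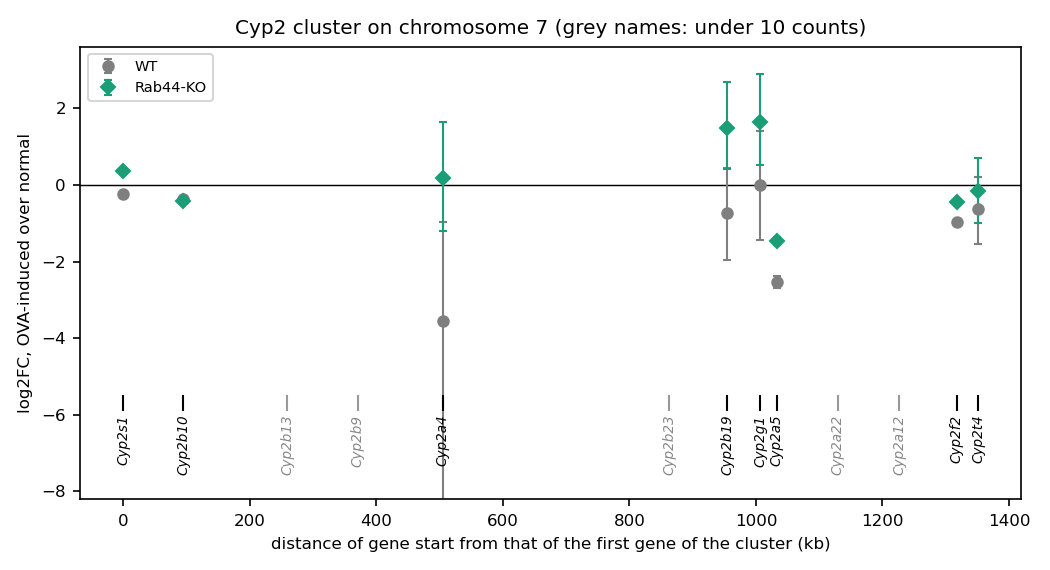
log2FC of OVA-induced over normal lungs along the chromosome 7 cluster of 13 family 2 genes, against the distance of each gene's start from that of Cyp2s1 in kb. Bars are 95% counting intervals and that of Cyp2a4 in WT, with 13 and 1 counts, runs past the lower edge; genes in grey names had under 10 counts. Cyp2b10 lies at nearly the same value in both genotypes, and Cyp2f2 and Cyp2a5 lie lower in WT than in Rab44-KO lungs.

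Along the chromosome 7 cluster the 8 measured genes had unlike values. In WT lungs the log2FC ran from -0.01 in Cyp2g1 to -3.55 in Cyp2a4, and in Rab44-KO lungs from -1.46 in Cyp2a5 to 1.63 in Cyp2g1. Cyp2g1, a P450 of the olfactory mucosa, and Cyp2b19, an epoxygenase of skin keratinocytes, lie between Cyp2a4 and Cyp2a5 and were chosen after their values were seen. They had 10, 9, 10 and 30 counts and 18, 10, 11 and 30 counts in the 4 libraries, so both were highest in OVA-induced Rab44-KO lungs. Their log2FC of OVA-induced Rab44-KO over OVA-induced WT was 1.56 (0.50 to 2.77) and 1.43 (0.40 to 2.58), with intervals that include less than 2-fold. Of the other 5 genes of the cluster, Cyp2a12, Cyp2a22, Cyp2b9, Cyp2b13 and Cyp2b23, none had more than 5 counts in a library.

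Markers of club cells were measured beside these genes. All 6 markers had at least 100 counts, and none was over 2-fold apart in any of the 4 comparisons. Their summed level was 29246, 28709, 20024 and 21804 CPM, and none was at 0. Scgb1a1 alone made up 22962, 22511, 16546 and 18288 CPM of these sums. The median log2FC with OVA induction was -0.51 in WT and -0.30 in Rab44-KO lungs, with Scgb1a1 at -0.47 and -0.30 and Cbr2 at -0.90 and -0.89, but Scgb3a1 at 0.32 and -0.15. Between genotypes in OVA-induced lungs the median was 0.24, with Scgb3a2 at 0.62 and Scgb3a1 at -0.30. The 6 ciliated cell markers summed to 681, 585, 543 and 568 CPM, with OVA medians of -0.27 and 0.28. The part that airway cells had in the P450 values was not tested.

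Cyp2e1, which oxidises ethanol and small solvents, lies apart from the cluster on chromosome 7 (140763739 to 140774987). It had 384 and 540 counts in the normal WT and Rab44-KO libraries and 154 and 193 in the OVA-induced ones. Both OVA-induced libraries lay below both normal ones, with a log2FC of -1.33 (-1.61 to -1.06) in WT and -1.58 (-1.82 to -1.34) in Rab44-KO. In normal lungs it was 0.56 (0.37 to 0.76) higher in Rab44-KO. Adipocyte markers had a similar order of libraries in part. Adipoq had 92, 159, 25 and 59 counts and Plin1 had 62, 122, 18 and 35 in the 4 libraries, whereas Cidec had 389, 331, 198 and 252 and Fabp4 381, 533, 602 and 292. The 4 adipocyte markers together, none of them at 0, summed to 48.1, 62.7, 43.5 and 32.7 CPM. With OVA induction their median log2FC was -1.39 in WT and -1.24 in Rab44-KO, and it was 0.71 between the genotypes in normal lungs, although Fabp4 was at 0.65 in WT and at -1.05 for Rab44-KO over WT in OVA-induced lungs. The part of fat tissue in the Cyp2e1 values was not tested. Hepatocyte markers were low, with Alb at 10, 12, 90 and 54 counts and Apoc3 at 0, 0, 0 and 1.

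The other family 2 genes that reached 10 counts were low. Cyp2j6 and Cyp2j9 lie on chromosome 4, and the deposited annotation attaches arachidonate epoxygenase activity to both. They had 304 to 408 and 111 to 173 counts, and none of their 8 differences was over 2-fold. Cyp2r1, which starts the activation of vitamin D, and Cyp2u1, a fatty acid hydroxylase, had 19 to 29 and 18 to 24 counts, and Cyp2t4 had 20 to 31. Cyp2c23, the renal epoxygenase, had 13 counts in each normal library and 6 and 7 in the OVA-induced ones, a log2FC of -1.11 (-2.81 to 0.37) in WT whose interval includes 0. The chromosome 19 cluster of 14 Cyp2c genes, which make up much of the liver's drug-oxidising P450, had no gene with 10 counts. In all, 34 of 49 family 2 genes stayed under 10 counts and 21 had none.

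Family 3, the main drug-oxidising P450 family of liver and gut, was barely detected. Cyp3a13 alone of its 7 genes reached 10 counts, with 171, 142, 98 and 139 in the 4 libraries. It was lowest in OVA-induced WT lungs. OVA induction went with -0.81 (-1.19 to -0.45) in WT and -0.13 (-0.47 to 0.22) in Rab44-KO on the log2 scale. Of the others, Cyp3a57 had at most 8 counts and Cyp3a11 at most 7. The chromosome 5 cluster of 6 Cyp3a genes held no gene with 10 counts.

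**Figure D4:**
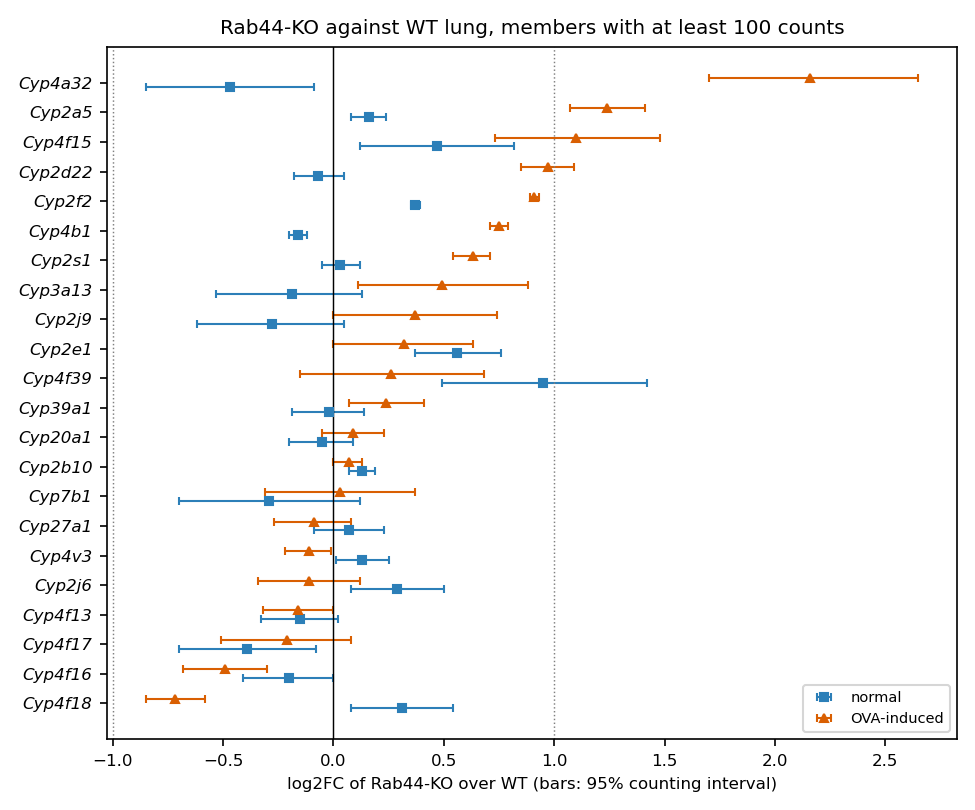
log2FC of Rab44-KO over WT for P450 genes with at least 100 counts, normal lungs as squares and OVA-induced lungs as triangles, with bars for the 95% counting interval and dotted lines at 2-fold. Cyp4a32, Cyp2a5 and Cyp4f15 lie beyond 2-fold in OVA-induced lungs, at 2.16, 1.24 and 1.10, and none of the genes drawn does in normal lungs.

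In family 4, Cyp4b1 and Cyp4a32 were lowest in OVA-induced WT lungs, while Cyp4f18 was highest there. Cyp4b1 on chromosome 4 (115624725 to 115647723, minus strand) had 680 and 609 CPM in the normal WT and Rab44-KO libraries and 388 and 654 CPM in the OVA-induced ones. The 3 libraries other than OVA-induced WT lay close together. With OVA induction its log2FC was -0.81 (-0.85 to -0.77) in WT and 0.10 (0.06 to 0.14) in Rab44-KO, and Rab44-KO over WT was -0.16 (-0.20 to -0.12) in normal and 0.75 (0.71 to 0.79) in OVA-induced lungs. By TPM, Cyp4b1 was beyond 2-fold apart in OVA-induced lungs, at 426 in WT and 900 in Rab44-KO. Cyp4a32 is its neighbour on the plus strand (115600969 to 115621602), 3122 bases away with the 3′ ends facing each other, in a group of fatty acid omega-hydroxylases. It had 147, 101, 47 and 212 counts, or 7.66, 5.53, 2.43 and 10.9 CPM. Like Cyp4b1 it was lowest in OVA-induced WT, but it was highest in OVA-induced Rab44-KO lungs. In WT it was 3.15-fold lower with OVA induction (log2FC -1.65, -2.16 to -1.17) and in Rab44-KO 1.96-fold higher (0.97, 0.63 to 1.33). Rab44-KO exceeded WT by 4.47-fold in OVA-induced lungs (2.16, 1.70 to 2.65), the largest genotype difference among P450 genes with at least 100 counts, and was below WT in normal lungs (-0.47, -0.85 to -0.09).

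Endothelial markers were also lowest in the OVA-induced WT library. The 6 of them, none at 0, summed to 3177, 3172, 2273 and 3551 CPM in the 4 libraries. With OVA induction their median log2FC was -0.61 in WT and 0.06 in Rab44-KO, and it was 0.76 for Rab44-KO over WT in OVA-induced lungs. There Tek, at 1.01 (0.96 to 1.06), and Vwf, at 1.0 (0.96 to 1.04), were highest, with intervals that include less than 2-fold. The length trend was not removed for marker genes. In the same comparison other lists held both signs, such as Rtkn2 at 0.84 and Ager at -0.72 among alveolar type 1 markers, or Ccdc39 at 0.90 and Tppp3 at -0.35 among ciliated ones. The 4 heart muscle markers summed to 563, 637, 251 and 592 CPM, with 3 of 4 over 2-fold lower with OVA induction in WT and, after it, 3 higher in Rab44-KO by the same measure, and none at 0. Their part in the Cyp4b1 and Cyp4a32 values was not tested.

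Cyp4f18, the enzyme with which neutrophils inactivate leukotriene B4, lies on chromosome 8 (71988482 to 72009626). It had 15.2 and 18.8 CPM in the normal WT and Rab44-KO libraries and 62.2 and 37.9 CPM in the OVA-induced ones. Both OVA-induced libraries lay above both normal ones. OVA induction went with a log2FC of 2.03 (1.85 to 2.22), or 4.09-fold, in WT and 1.01 (0.82 to 1.20), or 2.01-fold, in Rab44-KO. Rab44-KO was above WT in normal lungs (0.31, 0.08 to 0.54) and below it in OVA-induced lungs (-0.72, -0.85 to -0.58). The 6 neutrophil markers, none at 0, summed to 100, 125, 538 and 680 CPM, and all 6 were over 2-fold higher with OVA induction in both genotypes (median log2FC 2.54 in WT and 2.57 in Rab44-KO). Between genotypes in OVA-induced lungs their median was 0.45, opposite in sign to Cyp4f18. Macrophage markers there had a median of -1.32, with 3 of 6 over 2-fold lower, and summed to 800, 730, 5954 and 1301 CPM with none at 0, of which Chil3 alone made up 355, 309, 5248 and 917 CPM. The part of either cell type in the Cyp4f18 values was not tested.

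The chromosome 17 cluster of 8 Cyp4f genes, whose products hydroxylate leukotrienes and long fatty acids, held 6 genes with at least 10 counts. Cyp4f13 had 30.7, 27.6, 34.4 and 30.8 CPM and differed by at most 0.17 on the log2 scale in any comparison, with a sign that turned under TPM in the OVA-induced genotype comparison (-0.16 to 0.17) and in the OVA response of WT (0.17 to -0.01). Cyp4f16, at 22.5, 19.6, 29.1 and 20.8 CPM, was highest in OVA-induced WT, where Rab44-KO was lower by a log2FC of -0.49 (-0.68 to -0.30). By TPM this gap was smaller, at 26.6 in WT and 23.8 in Rab44-KO. Cyp4f15 went the other way with 124, 163, 90 and 194 counts, and in OVA-induced lungs it was 2.14-fold higher in Rab44-KO (1.10, 0.73 to 1.48). Genes of this cluster therefore differed in the direction of the genotype difference. Cyp4f39, which hydroxylates very long fatty acids of the skin barrier, had 62, 114, 92 and 111 counts and the largest positive genotype difference in normal lungs among the 33 measured genes (0.95, 0.49 to 1.42). Cyp4f17 had 211, 153, 207 and 180 counts and no difference over 2-fold. Cyp4f37 had 0, 4, 11 and 3 counts, which in OVA-induced WT is at least 3.64-fold higher than in normal WT when the 0 is set to a floor of 3 counts, or 0.156 CPM. The counting interval of this log2FC begins lower, at 1.32.

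Cyp4v3, the mouse form of the fatty acid hydroxylase CYP4V2, lies on chromosome 8 (45304944 to 45333216). It had 57.8, 63.5, 78.5 and 72.7 CPM, slightly higher in both OVA-induced libraries, with a log2FC of 0.44 (0.33 to 0.55) in WT and 0.20 (0.08 to 0.31) in Rab44-KO. The genotypes differed by 0.13 (0.01 to 0.25) in normal and -0.11 (-0.22 to -0.01) in OVA-induced lungs, and the latter was 0.22 under TPM and 0.10 with the length trend removed. Of the 17 family 4 genes, 7 stayed under 10 counts.

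Of the P450 genes of sterol and bile acid metabolism, 3 had at least 100 counts, and none of these was over 2-fold apart in any comparison. Cyp27a1, the mitochondrial sterol hydroxylase on chromosome 1, had 33.0, 34.7, 28.5 and 26.7 CPM, with a log2FC with OVA induction of -0.21 (-0.38 to -0.05) in WT and -0.38 (-0.55 to -0.21) in Rab44-KO. The difference between the genotypes in OVA-induced lungs was -0.09 (-0.27 to 0.08), and 0.23 under TPM. Cyp39a1, an oxysterol hydroxylase on chromosome 17, had 33.4, 32.9, 26.6 and 31.4 CPM and was lowest in OVA-induced WT (-0.33, -0.50 to -0.16). Cyp7b1, another oxysterol hydroxylase, had 118, 92, 144 and 148 counts and a log2FC with OVA induction of 0.59 (0.21 to 0.98) in Rab44-KO, against 0.27 (-0.09 to 0.64) in WT. Cyp8b1, which directs bile acid synthesis to cholic acid, was chosen after its values were seen. It had 47, 23, 41 and 69 counts, so it was lowest in normal Rab44-KO and highest in OVA-induced Rab44-KO lungs, with a log2FC between these of 1.48 (0.79 to 2.24). Cyp7a1, the rate-limiting enzyme of bile acid synthesis, had no count, and the brain cholesterol hydroxylase Cyp46a1 had 22 to 32.

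In the vitamin D and steroid hormone families few genes were detected. Cyp27b1, which makes active vitamin D, was chosen after its values were seen, with 39 and 48 counts in the normal WT and Rab44-KO libraries and 82 and 28 in the OVA-induced ones. It was highest in OVA-induced WT and lowest in OVA-induced Rab44-KO. Its log2FC with OVA induction was 1.06 (0.49 to 1.65) in WT and -0.87 (-1.60 to -0.17) in Rab44-KO, and Rab44-KO was 2.94-fold below WT in OVA-induced lungs (-1.56, -2.23 to -0.93). Cyp24a1, which degrades active vitamin D, had no count. Cyp11a1, which makes pregnenolone from cholesterol and was also picked after its values were seen, had 15, 9, 37 and 22 counts, with a log2FC with OVA induction of 1.28 (0.39 to 2.26) in WT and 1.18 (0.02 to 2.50) in Rab44-KO. Of the later steroid enzymes, Cyp17a1, Cyp21a1 and Cyp11b1 had at most 4 counts, and Cyp11b2 and Cyp19a1 had none. The cholesterol carrier Star had 112 to 144 counts, and the other 3 steroidogenic markers had at most 1 count, with Nr5a1 at 0. Cyp20a1, a P450 without a known substrate, had 808, 740, 798 and 857 counts and differed by at most 0.12 on the log2 scale, although Rab44-KO over WT in OVA-induced lungs was 0.42 under TPM and 0.34 with the length trend removed, against 0.09.

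Few genes that serve P450 enzymes were over 2-fold apart. Of 7 measured electron transfer partners none was over 2-fold apart in any comparison. Por, the reductase, had 7490, 7259, 5215 and 4364 counts and a log2FC with OVA induction of -0.53 in WT and -0.83 in Rab44-KO. In the heme list, 1 of 9 genes (11.1%) was over 2-fold higher with OVA induction in WT, against 8.99% of all genes. It was the heme oxygenase Hmox1 (1.34), which was also lower in OVA-induced Rab44-KO than WT (-1.21). Alas1, the rate-limiting enzyme of heme synthesis, had a log2FC with OVA induction of -0.56 in WT and -0.90 in Rab44-KO. Of the nuclear receptors, the xenobiotic receptor Nr1i2 (PXR) had 49 counts in normal WT and 19 in normal Rab44-KO lungs (-1.29), Nr1i3 (CAR) had 57 to 78, and Hnf4a had at most 3.

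The flavin monooxygenases and epoxide hydrolases, which oxidise or hydrolyse many of the same foreign compounds, were lower with OVA induction in WT lungs to unequal degrees. All 7 lay below 0 there, with a median of -0.89 and Fmo2 at -1.05 and Fmo4 at -1.26, but Ephx2 at only -0.04 (-0.48 to 0.39). In Rab44-KO the median was -0.08, with Fmo2 at 0.05 and Fmo5 at 0.23, while the epoxide hydrolases Ephx1 and Ephx2 were at -0.65 and -0.82. In OVA-induced lungs all 7 lay above 0 for Rab44-KO over WT, with a median of 0.62 and Fmo2 at 1.03. The OVA-induced WT library is again common to both comparisons.

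**Figure D5:**
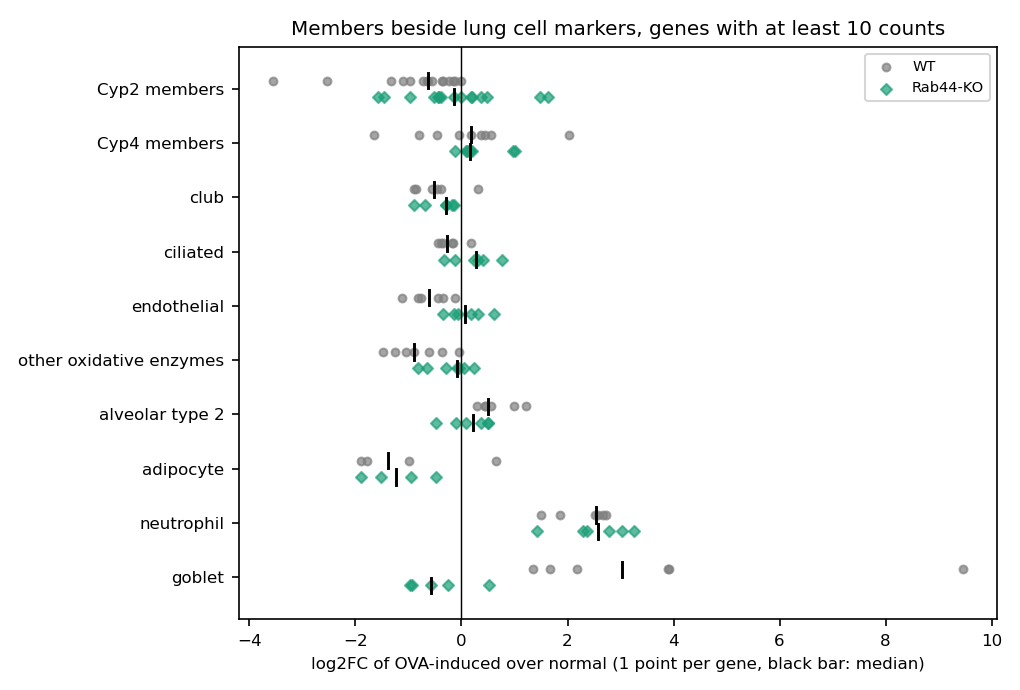
log2FC of OVA-induced over normal lungs, 1 point per gene that reached 10 counts, WT as circles and Rab44-KO as diamonds, with black bars at the medians of the genes drawn; Cyp4f37, at 0 counts in normal WT, is not drawn. Family 2 P450 genes have a median of -0.64 in WT and -0.15 in Rab44-KO, and the other oxidative enzymes -0.89 and -0.08, beside -0.51 and -0.30 for club cell markers.

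Marker lists of other cell types were measured beside these values. Goblet cell markers had a median log2FC with OVA induction of 3.03 in WT, with 6 of 6 over 2-fold higher, and their sum was 64.6 CPM in normal and 1918 in OVA-induced WT lungs, against 71.1 and 57.7 CPM in Rab44-KO. Clca1 alone made up 1725 CPM of the sum in OVA-induced WT. Alveolar type 2 markers had a median of 0.51 in WT, against 0.22 in Rab44-KO, and alveolar type 1 markers -0.25 and -0.62. Fibroblast and smooth muscle markers had 0.04 in WT and -0.03 in Rab44-KO. Eosinophil markers, with Epx at no more than 1 count, had 2.09 and 0.04 in this order, T cell markers 1.10 and 0.23, and B cell markers 1.04 and 0.82. How these cell types bear on the P450 values was not tested.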

How the data were processed

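Total RNA of whole lung was sequenced as 150-bp paired-end reads from a directional library kit, with 1 library per group and groups taken from the labels. After trimming, the authors mapped these reads to GRCm38 (HISAT2) and summed them by gene (featureCounts), and the deposited raw counts are whole numbers. They also deposited TPM, the counts rescaled by gene length and library. Tool versions and how featureCounts treated strand and multi-mapped reads are not given in the sources used here, and DESeq2 is named for the authors' own tests.

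Counts were scaled with TMM in edgeR 4.0.16 (R 4.3.3), and a log2FC was taken with a prior count of 0.125 where the higher library reached 10 counts. Count ratios have Clopper-Pearson and CPM have Poisson 95% intervals, by scipy 1.17.1. A 0 was set to a floor of 3 counts. No single comparison could be tested with 1 library per group, and no model over all libraries was fitted. The steps were tested on simulated counts before use. Tables were handled with Python 3.11.15, numpy 2.4.6 and pandas 2.3.3, and figures drawn with matplotlib 3.10.9.

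The text names the 15 genes with the highest mean TPM, those with at least 100 counts and over 2-fold apart in any comparison, the 5 largest absolute log2FC per comparison at that minimum, those whose interval lies wholly beyond 2-fold, and members of the lists. Lists cover electron transfer partners, nuclear receptors, heme genes, other oxidative enzymes, P450 genes outside the symbol rule, and markers of club, ciliated, goblet, alveolar, endothelial, fibroblast and smooth muscle, macrophage, neutrophil, eosinophil, T, B, hepatocyte, steroidogenic, adipocyte and heart muscle cells. The members and lists were chosen with earlier results of these data known. Alternatives were DESeq2 1.42.0 size factors, total counts, TMM on the 2 libraries compared, TPM with a pseudocount of 0.1, a prior count of 2, count minimums of 1 and 50, intervals wholly beyond 2-fold and, added after seeing the data, removal of a running median along gene length over 501 genes.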

Additional observations from a re-analysis of the deposited data

Results flagged for a closer look

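Results are listed here where 2 effects under the same contrast had opposite signs and counting intervals on opposite sides of 0, and with 1 library per group none of these differences was tested. In the OVA response, Rab44-KO minus WT was 2.63 on the log2 scale for Cyp4a32 (0.97 against -1.65), 1.04 for Cyp2d22 (0.49 against -0.55), 0.91 for Cyp4b1 (0.10 against -0.81) and 0.60 for Cyp2s1 (0.36 against -0.24). For Cyp27b1 it was -1.93, with a log2FC of -0.87 in Rab44-KO and 1.06 in WT lungs.

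In the genotype comparison, the value in OVA-induced minus that in normal lungs was again 2.63 for Cyp4a32 (2.16 against -0.47) and 0.91 for Cyp4b1 (0.75 against -0.16), since both differences are made from the same 4 libraries. It was 1.69 for Cyp8b1 (0.74 against -0.95), -1.02 for Cyp4f18 (-0.72 against 0.31) and -0.25 for Cyp4v3 (-0.11 against 0.13). The Cyp4v3 value in OVA-induced lungs changed sign under TPM.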

How the results depend on the processing

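The 20 genes named by the rule gave 462 values over 6 other settings of scaling, prior count or length correction, and the 66 of these whose original value lay beyond 2-fold all kept their sign and stayed beyond 2-fold. However, 34 of 77 values under TPM, 22 with the length trend removed and 5 with total counts fell outside their counting interval. The intervals therefore do not cover the choice of scaling. Signs matched in 77 of 77 values with DESeq2 size factors, TMM on the 2 libraries, total counts and a prior count of 2, in 72 with the length trend removed and in 70 with TPM, which shifts the log2FC by a median of 0.03, 0.33, -0.17 and 0.13, and by up to 0.72 in a low gene, in normal and OVA-induced Rab44-KO over WT and the OVA response of WT and Rab44-KO. Without a minimum (at least 1 count) the genes over 2-fold higher and lower were 9 and 3 of 49, 15 and 11 of 55, 14 and 12 of 53, and 11 and 8 of 51 in these comparisons, against 11.7% and 9.65%, 16.5% and 13.3%, 16.0% and 12.6%, and 14.8% and 11.8% of all genes. At 50 counts they were 3 and 1 in OVA-induced Rab44-KO over WT and 2 and 3 in the OVA response of WT, and 2 and 2 in that of Rab44-KO. With intervals wholly beyond 2-fold they were 2 and 0, 2 and 3, and 0 and 2, respectively. With TPM, 10 were higher and 2 lower in OVA-induced Rab44-KO over WT, against 13.5% and 4.03% of all genes, and 2 and 6 in the OVA response of WT, against 6.69% and 5.79%, and the median OVA response of Rab44-KO was 0.23. Each group holds 1 library, so no comparison could be paired within itself and no replicate could be left out. An analysis blocked by genotype or condition was not run. Counts under 100 in every library limit, among others, Cyp2a4, Cyp2c23, Cyp2g1, Cyp2b19, Cyp4f37, Cyp8b1, Cyp11a1 and Cyp27b1.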

Other observations

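P450 genes whose names fall outside the symbol rule were measured beside the others. Cyp51, the demethylase of cholesterol synthesis, had 845 and 743 counts in the normal WT and Rab44-KO libraries and 1495 and 679 in the OVA-induced ones. It was highest in OVA-induced WT, where Rab44-KO was lower by a log2FC of -1.15. Tbxas1, the thromboxane synthase, had 225, 212, 640 and 316 counts in the same order, with a log2FC of 1.50 with OVA induction in WT and 0.48 in Rab44-KO, and -1.03 between the genotypes in OVA-induced lungs. Ptgis, the prostacyclin synthase, had 3209, 2410, 2252 and 1932 counts, and Cyp2ab1 had 23 to 44. Of these 4 genes, 2 were over 2-fold lower in Rab44-KO after OVA induction, and none in normal lungs. Cyp4a12b, a fatty acid hydroxylase next to the Cyp4a genes that was picked after its values were seen, had 37, 48, 8 and 25 counts, and its log2FC with OVA induction was -2.20 in WT and -1.03 in Rab44-KO lungs.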
